A study of Homo sapiens with 6 samples.

Results

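The genes described here build and supply the DNA replication machinery: 50 genes for origin recognition, helicase loading and activation, DNA synthesis, nucleotide supply, maintenance of DNA methylation, and the factors of the G1/S transition. They were taken as a given list of symbols, by function. All 50 were found among the 25071 genes of the count table, and all 50 had enough counts to enter the test, which covered 15816 genes. The list names their function, and it is not a count of replicating cells.

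Cells of PLC/PRF/5, a human hepatoma line, had been transfected with a plasmid that overexpresses ARD1 (3 libraries) or with a control vector (3 libraries). They were harvested 48 h later for sequencing of rRNA-depleted RNA. Both groups were transfected, and the labels name the same line for both. The labels give neither the share of cells that took up a plasmid nor the origin of the replicates. Whether each replicate is a culture of its own is thus unknown, and the p-values may rest on technical spread alone. NAA10, the official symbol of ARD1, encodes the enzyme of the NatA N-terminal acetyltransferase. NAA10 itself had 355, 400.2 and 294 CPM in the ARD1 libraries, against 35.6, 32.2 and 36.2 CPM in the control libraries (log2 fold change 3.34, SE 0.107, adjusted p = 3.53e-12). Levels are TMM-normalised counts scaled by library size (CPM). Libraries held 21857327 to 25011357 counts, and 3 counts amounted to 0.112 to 0.143 CPM. Of 16 hepatocyte and hepatoma markers, 13 averaged at least 1 CPM in a group. Their summed level was 2341 to 2406 CPM in ARD1 libraries and 3747 to 4525 CPM in control libraries, with APOA1, APOA2 and TTR under 1 CPM. KRT8 made up most of the sum, at 1561 ± 33.5 CPM with the ARD1 plasmid and 2423 ± 367 CPM with the control vector (SD, n = 3 each). Of the 13 tested, 8 fell and 4 rose. ALB, serum albumin, had 36.3 ± 3.89 CPM with the ARD1 plasmid and 315 ± 6.37 CPM with the control vector, and TF, transferrin, had 17.3 ± 0.825 CPM with the ARD1 plasmid and 161 ± 15.3 CPM with the control vector. SERPINA1 and FGA were among those that rose, FGA with 215 ± 5.54 CPM with the ARD1 plasmid and 130.2 ± 7.997 CPM with the control vector.

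Replication origins are marked in G1 by the origin recognition complex, ORC. CDC6 and CDT1 then load the MCM2-7 helicase as an inactive double ring, the step called licensing. At the start of S phase CDC45 and the GINS complex join MCM2-7 to form the active helicase. Polymerase alpha-primase primes each strand, and polymerases epsilon and delta extend the primers with the sliding clamp PCNA, which the RFC complex loads. E2F transcription factors, held in check by RB-family proteins until cyclin E-CDK2 and other kinases act, are known to drive many of these genes at the G1/S transition, MCM genes and RRM2 among them. In the adult liver few hepatocytes cycle, and proliferating hepatoma lines express this programme in culture.

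The replication genes were mostly lower with the ARD1 plasmid. By edgeR's quasi-likelihood test with Benjamini-Hochberg adjustment over all genes tested (adjusted p under 0.05), 39 of 50 changed, where 64.6% of all genes tested did. Of these, 34 of 50 fell (68%), where 32.2% of all genes tested fell, and 5 of 50 rose (10%), where 32.4% of all rose. The other 11 did not pass. The same shares of all genes tested stand beside the counts by step given below. Falls of at least 2-fold were seen in 10 members (20%), where 11.8% of all genes tested fell that far, and no member rose 2-fold, where 9.71% of all did. That count of 10 was 4 with library totals alone and 7 with GC and length offsets. The median log2 fold change of ARD1 plasmid over control vector was -0.41 in the 50 genes (quartiles -0.68 and -0.10) and 0.03 over all genes tested (quartiles -0.49 and 0.49). In 33 members every ARD1 library lay below every control library, where 34.0% of all genes tested did so. In 7 members every ARD1 library lay above, where 35.6% of all did so. In bulk RNA, fewer cells in S phase and less of a transcript per cell cannot be told apart. Nor can either be told apart from any wider difference between the cells of the groups, and none of these was tested.

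These directions are relative to the bulk of the transcriptome. Scaling by library totals alone, in place of TMM, moved the median of all genes tested up to 0.30, so that 68.6% of calls over all genes were higher, against 50.2% with TMM. With totals alone 21 of the 50 replication genes fell, where 22.0% of all genes tested fell. With the same scaling 10 of the 50 rose, where 7606 of 15816 genes tested rose. The median of the 50 was then -0.14. Measured against the median of all genes, the replication genes sat 0.44 lower on the log2 scale with either scaling, and 40 of 50 lay below that median in both. With offsets for GC content and transcript length they sat 0.38 lower. Of the 50 genes 35 then fell, where 34.5% of all genes tested fell, and 3 rose, where 5265 of 15816 rose.

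**Figure D1:**
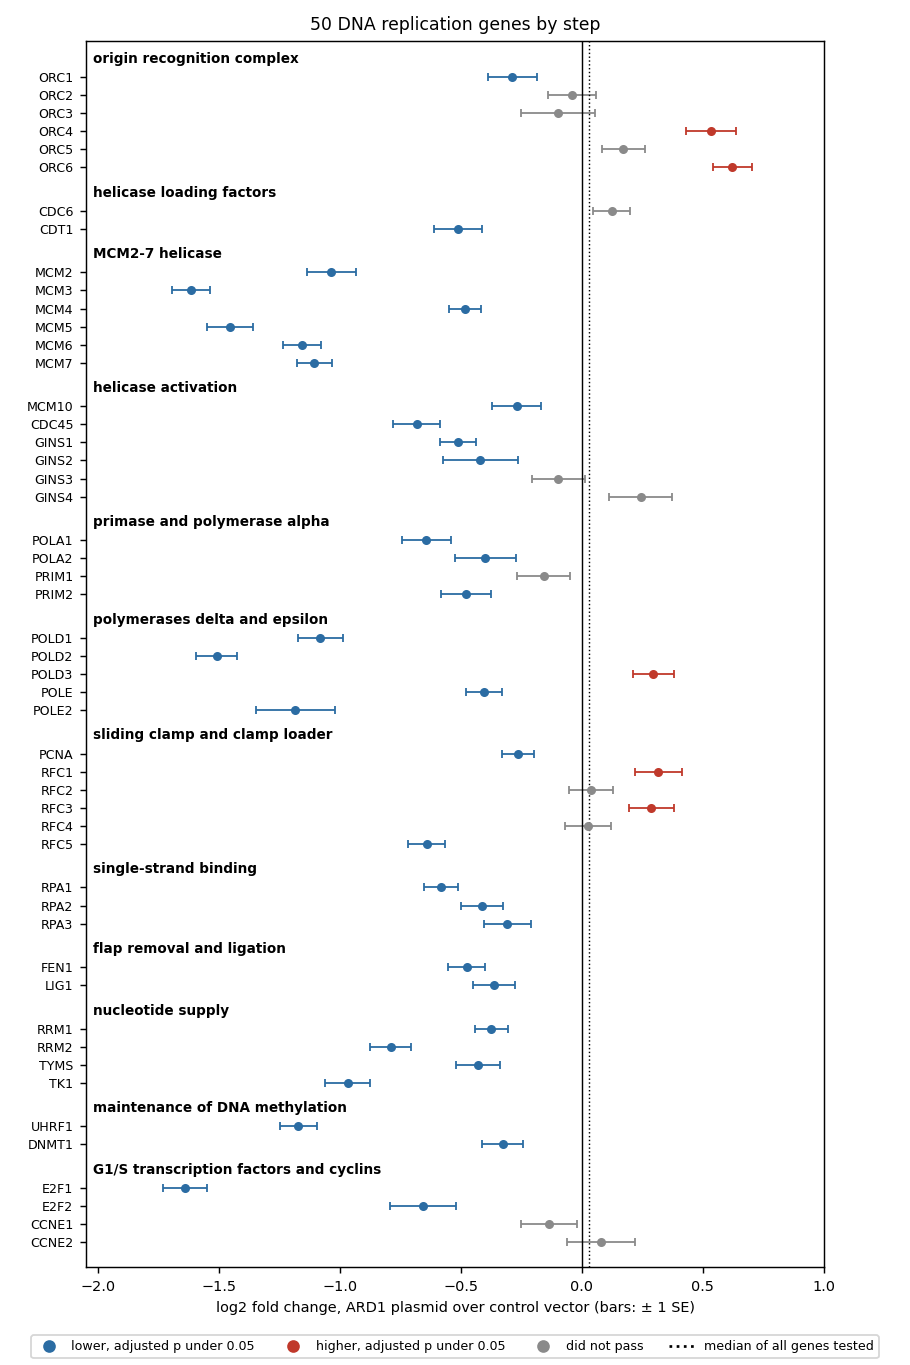
Log2 fold change (x axis, ARD1 plasmid over control vector, TMM scaling) of each of the 50 genes, grouped by step (y axis), with bars of ± 1 SE from edgeR. Blue points fell, red points rose and grey points did not pass at an adjusted p of 0.05. All 6 MCM2-7 genes lie left of 0 (also with library totals alone), while ORC4 and ORC6 are the points farthest to the right.

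**Figure D2:**
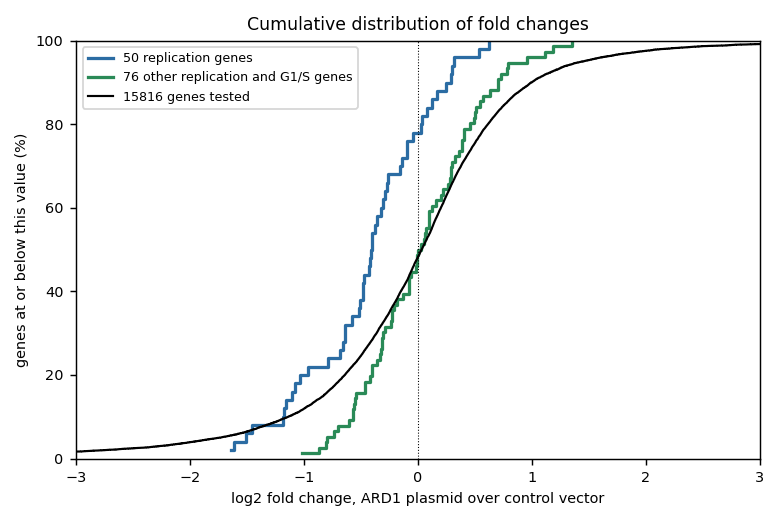
Cumulative share of genes (y axis, percent) at or below each log2 fold change (x axis, ARD1 plasmid over control vector, TMM scaling) for the 50 replication genes, 76 other replication and G1/S genes, and all 15816 genes tested. The line of the 50 genes crosses 50% at -0.41, while those of the other genes and of all genes cross at 0.01 and 0.03. The 50 genes span -1.64 to 0.62.

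Of the 4 listed G1/S regulators E2F1 and E2F2 fell and the E-type cyclins did not pass. E2F3, an activator E2F outside the 50, did not pass either (log2 fold change 0.10, SE 0.0797, adjusted p = 0.298), although its ARD1 libraries all lay above its control libraries; it is named after its values were seen. E2F1, a transcription activator of S-phase genes, had 20.3, 18.5 and 17.4 CPM in the ARD1 libraries, against 62.00, 59.02 and 54.5 CPM in the control libraries (log2 fold change -1.64, SE 0.0907, adjusted p = 9.83e-10). The highest ARD1 library lay far below the lowest control library, and the fall was the largest among the 50 with TMM scaling. E2F2, its close paralogue, had 7.45, 5.999 and 7.21 CPM in the ARD1 libraries, against 11.9, 11.2 and 9.43 CPM in the control libraries (log2 fold change -0.66, SE 0.135, adjusted p = 0.000613). The 2 groups did not overlap for E2F2 either. CCNE1, a cyclin that activates CDK2, had 14.9, 18.8 and 16.3 CPM in the ARD1 libraries, against 20.4, 16.4 and 18.2 CPM in the control libraries (log2 fold change -0.14, SE 0.116, adjusted p = 0.310). CCNE2, its paralogue, had 7.20, 6.90 and 7.69 CPM in the ARD1 libraries, against 5.78, 7.41 and 7.45 CPM in the control libraries (log2 fold change 0.08, SE 0.139, adjusted p = 0.642). For both cyclins the libraries of the groups interleaved. Exons of INTS8 and other genes on the opposite strand cover 37.1% of CCNE2's exon bases, and how strands were counted is not given in the sources used here.

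Promoter sequences are shown because E2F proteins bind DNA and are known to drive many of these genes. Of the 50 members 34 fell and 5 rose, where 32.2% of all genes tested fell and 32.4% rose. A RefSeq window from 250 bases before to 50 after the transcription start (GRCh38.p14) was at hand for 43 of the 50 genes. Each was searched on both strands for 4 forms of the E2F letters, TTTCCCGC, TTTGGCGC, TTTCGCGC and TTTGCCGC. Matches may overlap each other. The 200 bases before the start are given 5′ to 3′ on the gene's strand with the matches in capitals. They come from the most lowered member (E2F1), from the most lowered MCM gene (MCM3), from the MCM gene with the most matches (MCM6), from the most lowered polymerase gene (POLD2), and from a pair of members that rose (RFC3 and ORC6). Coordinates and strand are chr20:33686386-33686585, minus strand, for E2F1; chr6:52284743-52284942, minus strand, for MCM3; chr2:135876444-135876643, minus strand, for MCM6. They are chr7:44123549-44123748, minus strand, for POLD2; chr13:33817949-33818148, plus strand, for RFC3; and chr16:46689459-46689658, plus strand, for ORC6.
E2F1: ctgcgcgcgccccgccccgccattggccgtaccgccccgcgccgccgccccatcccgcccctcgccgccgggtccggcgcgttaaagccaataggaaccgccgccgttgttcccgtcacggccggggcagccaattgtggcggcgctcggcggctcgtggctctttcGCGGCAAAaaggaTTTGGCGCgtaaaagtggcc
MCM3: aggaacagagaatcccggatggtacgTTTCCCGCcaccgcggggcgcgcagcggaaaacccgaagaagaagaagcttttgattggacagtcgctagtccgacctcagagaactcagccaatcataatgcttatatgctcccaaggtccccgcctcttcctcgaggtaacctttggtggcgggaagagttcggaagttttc
MCM6: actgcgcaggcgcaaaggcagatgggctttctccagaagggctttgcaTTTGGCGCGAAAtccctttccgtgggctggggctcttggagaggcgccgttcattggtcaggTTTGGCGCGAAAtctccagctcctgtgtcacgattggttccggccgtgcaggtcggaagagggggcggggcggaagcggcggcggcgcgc
POLD2: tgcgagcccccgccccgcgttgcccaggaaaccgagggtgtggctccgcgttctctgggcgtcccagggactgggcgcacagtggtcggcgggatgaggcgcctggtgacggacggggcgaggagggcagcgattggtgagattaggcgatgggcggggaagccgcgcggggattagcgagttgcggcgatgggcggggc
RFC3: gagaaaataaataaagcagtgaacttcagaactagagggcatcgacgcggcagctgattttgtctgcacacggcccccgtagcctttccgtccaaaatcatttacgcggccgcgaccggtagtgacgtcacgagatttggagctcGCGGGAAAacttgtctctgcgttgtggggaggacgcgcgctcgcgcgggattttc
ORC6: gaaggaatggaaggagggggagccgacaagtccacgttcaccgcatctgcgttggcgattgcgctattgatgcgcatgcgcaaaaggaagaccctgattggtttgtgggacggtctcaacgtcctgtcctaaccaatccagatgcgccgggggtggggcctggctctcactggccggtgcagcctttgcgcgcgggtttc

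The E2F1 window holds 2 matches close to the start, and the MCM6 window holds 4, as 2 pairs in which matches on opposite strands overlap. MCM3 has 1 match in the window shown and another that spans the start. RFC3, which rose, has 1, whereas POLD2, which fell by 1.51 on the log2 scale, and ORC6 have none of these letters here. Over the members with a promoter, 22 of 43 (51.2%) held at least 1 match, where 5.13% of tested genes with a promoter (592 of 11529) and 3.33% of all 27305 promoters did. All 4 MCM2-7 genes with a promoter held one, and of the 6 ORC genes 1 did. Since many of the listed genes are known E2F targets, the larger share among members follows in part from the list itself.

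The share of genes that fell was higher with a match than without one among the members, but not among the other genes. Of the 22 members with a match 18 fell (81.8%) and 1 rose, with a median log2 fold change of -0.47. Of the 21 members without one 12 fell (57.1%) and 3 rose, with a median of -0.29. Among the tested genes outside the 50, 168 of 570 with a match fell (29.5%) and 202 rose (35.4%), and their median was 0.08. Of the 10916 without one 33.3% fell and 33.2% rose, and their median was 0.02. These counts are descriptions, and a run of letters is not evidence of binding. CCAAT, the letters known for binding by NF-Y, searched on both strands in the same windows, stood in 24 of 43 members (55.8%) and in 36.4% of tested genes.

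In the origin recognition complex 2 of 6 genes rose, 1 fell and 3 did not pass. ORC6, a subunit that helps load MCM2-7, had 48.9, 49.9 and 50.7 CPM in the ARD1 libraries, against 30.1, 32.1 and 34.9 CPM in the control libraries (log2 fold change 0.62, SE 0.0824, adjusted p = 1.06e-05). Every ARD1 library stood well above every control library. ORC4, an AAA+ subunit of the ring, had 38.7, 36.7 and 34.7 CPM in the ARD1 libraries, against 21.5, 26.3 and 28.2 CPM in the control libraries (log2 fold change 0.53, SE 0.103, adjusted p = 0.000365). The groups were again separate, with control replicate 1 the lowest library. The log2 fold change of ORC4 was 0.20 with GC and length offsets (adjusted p = 0.0190). It was 0.41 without control replicate 1 and 0.79 with library totals alone. ORC1, the ATPase subunit that marks origins, fell modestly, with 13.2, 12.9 and 13.6 CPM in the ARD1 libraries, against 17.6, 15.3 and 15.5 CPM in the control libraries (log2 fold change -0.29, SE 0.102, adjusted p = 0.0231). Its call was lost without any 1 of the ARD1 libraries and with library totals alone. ORC2, a core subunit, had 34.4, 33.8 and 33.03 CPM in the ARD1 libraries, against 29.3, 36.2 and 38.6 CPM in the control libraries (log2 fold change -0.04, SE 0.100, adjusted p = 0.736), and the libraries of the groups overlapped. ORC3 and ORC5 did not pass, with log2 fold changes of -0.10 and 0.17. Summed over the 6 genes, ORC transcripts amounted to 194 ± 4.25 CPM in ARD1 cells and 166 ± 18.6 CPM in control cells (SD, n = 3 each). ORC2 and ORC3 passed as lower with offsets for GC content and length, and also without control replicate 1 (ORC2 -0.16, adjusted p = 0.0408; ORC3 -0.31, adjusted p = 0.00326). The median of the step was -0.10 with the offsets and -0.041 without that library, where it was 0.07 over all libraries with TMM alone.

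Of the helicase loading factors, CDT1 fell and CDC6 did not pass. CDT1, which brings MCM2-7 to ORC, had 34.1, 30.9 and 30.1 CPM in the ARD1 libraries, against 51.9, 40.7 and 43.3 CPM in the control libraries (log2 fold change -0.51, SE 0.0989, adjusted p = 0.000345). The groups did not overlap. With GC and length offsets its log2 fold change was -0.05 (adjusted p = 0.498). CDC6, the ATPase that completes loading, had 41.3, 42.3 and 41.9 CPM in the ARD1 libraries, against 38.9, 39.6 and 36.8 CPM in the control libraries (log2 fold change 0.12, SE 0.0776, adjusted p = 0.179). Its ARD1 libraries all lay above the control libraries, by a small margin.

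All 6 genes of the MCM2-7 helicase fell, and each passed as lower in every alternative run with no minimum fold. MCM3 had 38.96, 35.2 and 37.8 CPM in the ARD1 libraries, against 119, 108 and 116 CPM in the control libraries (log2 fold change -1.62, SE 0.0769, adjusted p = 1.84e-10). The lowest control library was thus far above the highest ARD1 library. MCM5 (log2 fold change -1.45), MCM6 (-1.16), MCM7 (-1.11) and MCM2 (-1.04) followed, all with adjusted p at or below 5.42e-07. MCM4, whose N-terminal tail is a target of the DDK kinase, fell least, with 127, 125 and 125 CPM in the ARD1 libraries, against 179, 180.2 and 168 CPM in the control libraries (log2 fold change -0.48, SE 0.0663, adjusted p = 1.47e-05). Its groups did not overlap. Falls of at least 2-fold were seen in 5 of the 6 genes with TMM, in 2 with library totals alone and in 3 with GC and length offsets. The summed level of the 6 genes was 508 ± 7.79 CPM with the ARD1 plasmid and 1052 ± 70.3 CPM with the control vector (SD, n = 3 each). MCM2 shares 23.6% of its exon bases with genes on the opposite strand.

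Because the 6 proteins form a ring with 1 copy of each, their transcripts were also set side by side per kilobase of principal transcript. MCM7 was the most abundant in both groups, at 74.3 ± 1.16 CPM per kilobase in ARD1 cells and 160.0 ± 13.02 in control cells, and made up 49.4% of the 6 with ARD1 and 50.4% with the control vector. MCM4 took 19.9 ± 0.171% with ARD1 and 13.3 ± 0.697% with the control vector. MCM3 took 7.72 ± 0.343% with ARD1 and 11.3 ± 0.701% with the control vector, and MCM5 took 6.48% with ARD1 and 8.40% with the control vector. The shares of MCM2, 9.51% with ARD1 and 9.23% with the control vector, and of MCM6, 6.99% with ARD1 and 7.44% with the control vector, differed by less than the spread between control libraries. These shares are descriptions without a test.

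**Figure D3:**
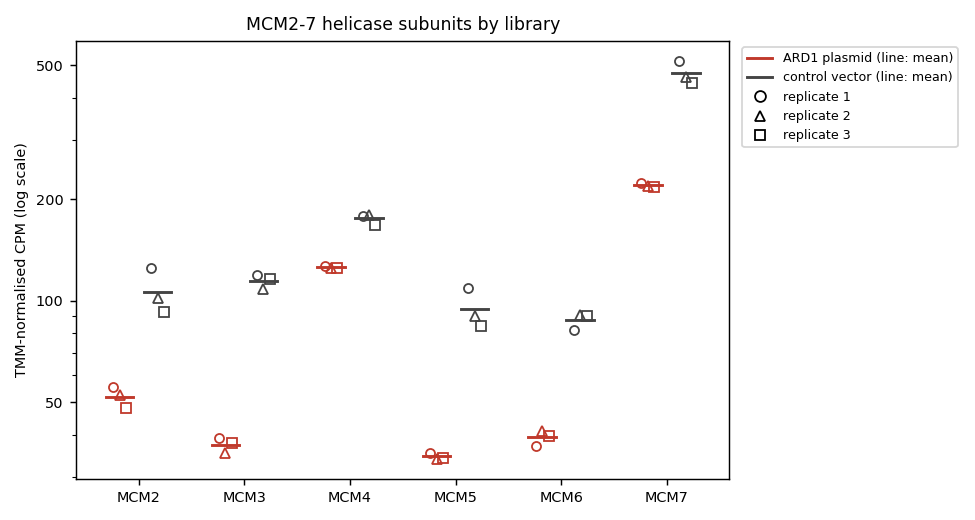
TMM-normalised CPM (y axis, log scale) of the 6 MCM2-7 genes (x axis) in each library, with the ARD1 libraries left of the control libraries and a line at each group's mean. The groups are apart for all 6 genes, and the gap is narrowest for MCM4, with means of 126 CPM for ARD1 and 176 CPM for control.

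Of the 6 genes that turn the loaded ring into an active helicase 4 fell, with a median of -0.35, where the median of MCM2-7 was -1.13. CDC45, the helicase cofactor that is limiting for origin firing, had 11.5, 11.1 and 10.96 CPM in the ARD1 libraries, against 18.01, 18.3 and 17.4 CPM in the control libraries (log2 fold change -0.68, SE 0.0980, adjusted p = 2.33e-05). The ARD1 libraries were tightly grouped below all control libraries. Of the 4 GINS genes, GINS1 fell (log2 fold change -0.51), GINS4 did not pass (0.24) and GINS2 passed narrowly. GINS4 passed as higher without control replicate 1 (0.40, adjusted p = 0.000861) and with library totals alone (0.51, adjusted p = 0.00289). Its value is uncertain, since genes on the opposite strand cover 23.6% of its exon bases. GINS2 had 12.2, 10.01 and 8.38 CPM in the ARD1 libraries, against 16.5, 13.02 and 11.4 CPM in the control libraries (log2 fold change -0.42, SE 0.155, adjusted p = 0.0269). Here the groups overlapped, and the call was lost in 4 alternatives: without control replicate 1, without ARD1 replicate 2 or 3, and with library totals alone. GINS3 had 12.1, 11.9 and 10.2 CPM in the ARD1 libraries, against 12.2, 11.8 and 12.6 CPM in the control libraries (log2 fold change -0.10, SE 0.111, adjusted p = 0.459), and its groups overlapped. MCM10, a scaffold needed for origin unwinding, fell by 0.27 on the log2 scale (adjusted p = 0.0317). That call was lost without any 1 of control replicates 2 and 3 and ARD1 replicates 2 and 3, and with upper-quartile scaling or library totals alone.

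Among the primase and polymerase alpha genes 3 of 4 fell. POLA1, the catalytic subunit of polymerase alpha, had 11.1, 11.1 and 12.4 CPM in the ARD1 libraries, against 16.9, 18.2 and 18.9 CPM in the control libraries (log2 fold change -0.64, SE 0.103, adjusted p = 6.69e-05). The groups did not overlap. PRIM1, the catalytic primase subunit, had 14.6, 13.9 and 13.6 CPM in the ARD1 libraries, against 14.1, 17.7 and 15.1 CPM in the control libraries (log2 fold change -0.16, SE 0.109, adjusted p = 0.217), and the groups overlapped. PRIM2 and POLA2, the accessory subunits, fell by 0.48 and 0.40 on the log2 scale. With library totals alone POLA1 was the 1 gene of the 4 that passed as lower (PRIM2 adjusted p = 0.0844, POLA2 adjusted p = 0.344). POLA2 was also lost with GC and length offsets (adjusted p = 0.0576), as it was when ARD1 replicate 1 was left out (adjusted p = 0.0588). PRIM1 passed as lower with the offsets (-0.29, adjusted p = 0.0137) and without control replicate 1 (-0.24, adjusted p = 0.0372). POLA2 shares 35.1% of its exon bases with another gene on its own strand, so its value is uncertain. PRIM1 shares 16.2% of its exon bases with genes on its own strand, NACA among them.

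In polymerases delta and epsilon 4 of 5 genes fell and 1 rose, and subunits of 1 enzyme moved in opposite directions. POLD2, the B subunit that ties the polymerase delta complex together, had 55.3, 59.5 and 53.01 CPM in the ARD1 libraries, against 178, 149 and 151 CPM in the control libraries (log2 fold change -1.51, SE 0.0850, adjusted p = 1.19e-09). POLD3, the subunit that binds PCNA and also serves in polymerase zeta, had 33.8, 34.2 and 35.9 CPM in the ARD1 libraries, against 28.4, 29.7 and 26.6 CPM in the control libraries (log2 fold change 0.29, SE 0.0846, adjusted p = 0.00681). For POLD2 all ARD1 libraries lay below the control libraries and for POLD3 all lay above them. The rise of POLD3 did not pass with GC and length offsets (log2 fold change 0.15, adjusted p = 0.0867) or without control replicate 3. POLD1, the catalytic subunit of polymerase delta, fell by 1.08 on the log2 scale (SE 0.0941, adjusted p = 1.35e-07). POLE, the catalytic subunit of polymerase epsilon, had 83.1 ± 1.23 CPM with the ARD1 plasmid and 110.0 ± 8.46 CPM with the control vector (SD, n = 3 each; log2 fold change -0.40, SE 0.0745, adjusted p = 0.000239). POLE2, its B subunit, had 3.05 ± 0.282 CPM with the ARD1 plasmid and 6.97 ± 0.991 CPM with the control vector (log2 fold change -1.19, SE 0.164, adjusted p = 1.62e-05).

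Of the 6 genes of the sliding clamp and its loader 2 fell and 2 rose. PCNA, the ring that tethers polymerases to DNA, had 139.8 ± 1.59 CPM with the ARD1 plasmid and 168 ± 5.10 CPM with the control vector (log2 fold change -0.26, SE 0.0655, adjusted p = 0.00257). With library totals alone its log2 fold change was 0.00, and it has 3 named pseudogenes. RFC5, a small loader subunit, had 31.8, 30.8 and 31.1 CPM in the ARD1 libraries, against 49.7, 49.5 and 47.2 CPM in the control libraries (log2 fold change -0.64, SE 0.0773, adjusted p = 4.02e-06). The groups were far apart relative to their spread. RFC1, the large subunit of the loader, had 70.9, 73.2 and 69.7 CPM in the ARD1 libraries, against 47.4, 61.2 and 63.2 CPM in the control libraries (log2 fold change 0.32, SE 0.0971, adjusted p = 0.0103). Control replicate 1 was well below the other control libraries. RFC3, a small subunit, had 21.3, 19.8 and 19.9 CPM in the ARD1 libraries, against 16.1, 16.5 and 17.3 CPM in the control libraries (log2 fold change 0.29, SE 0.0935, adjusted p = 0.0145). The groups did not overlap for either gene, and neither rise passed with GC and length offsets (RFC1 0.13, adjusted p = 0.0707; RFC3 0.06, adjusted p = 0.521). RFC3 was also lost with DESeq2 (adjusted p = 0.0502), without control replicate 2 and without ARD1 replicate 1. RFC4 had 40.1, 41.99 and 43.2 CPM in the ARD1 libraries, against 35.1, 42.8 and 45.3 CPM in the control libraries (log2 fold change 0.03, SE 0.0961, adjusted p = 0.830), with overlapping groups. RFC2 did not pass either (0.04), but passed as higher with GC and length offsets (0.18, adjusted p = 0.0295) and with library totals alone (0.30, adjusted p = 0.00946). The subunits of the 1 loader thus spanned -0.64 to 0.32.

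All 3 subunits of RPA, which coats single-stranded DNA, fell. RPA1, the large DNA-binding subunit, had 122, 125 and 123 CPM in the ARD1 libraries, against 193, 190.1 and 172 CPM in the control libraries (log2 fold change -0.58, SE 0.0699, adjusted p = 3.84e-06). Its groups did not overlap. RPA3, the smallest subunit, had 21.01, 22.5 and 22.2 CPM in the ARD1 libraries, against 24.1, 27.5 and 29.7 CPM in the control libraries (log2 fold change -0.31, SE 0.0975, adjusted p = 0.0121), also without overlap but with a smaller gap. RPA2 fell by 0.41 on the log2 scale, and it has 3 named pseudogenes that could share reads. The genes that finish the lagging strand fell too. FEN1, the nuclease that removes primer flaps, had 57.6, 50.02 and 52.6 CPM in the ARD1 libraries, against 74.6, 74.4 and 74.04 CPM in the control libraries (log2 fold change -0.48, SE 0.0762, adjusted p = 6.38e-05). LIG1, the ligase that seals the nicks, had 32.7, 28.4 and 31.8 CPM in the ARD1 libraries, against 41.3, 40.7 and 37.4 CPM in the control libraries (log2 fold change -0.36, SE 0.0876, adjusted p = 0.00209). Both had separate groups. With library totals alone RPA1 and FEN1 still passed as lower, and RPA2, RPA3 and LIG1 did not pass.

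All 4 listed nucleotide supply genes fell, where 32.2% of all genes tested did. TK1, the cytosolic thymidine kinase of the salvage route, had 72.7, 81.5 and 72.9 CPM in the ARD1 libraries, against 170.4, 133 and 141 CPM in the control libraries (log2 fold change -0.97, SE 0.0924, adjusted p = 3.61e-07). Control replicate 1 was the highest library, and the lowest control library was still far above the highest ARD1 library. The log2 fold change of TK1 was -0.55 with GC and length offsets and -0.70 with library totals alone. RRM2, the radical-bearing small subunit of ribonucleotide reductase, had 25.1, 25.3 and 22.8 CPM in the ARD1 libraries, against 42.2, 40.8 and 43.7 CPM in the control libraries (log2 fold change -0.79, SE 0.0843, adjusted p = 1.15e-06). RRM1, the large subunit of the same enzyme, had 78.3, 81.8 and 82.7 CPM in the ARD1 libraries, against 104, 107 and 105 CPM in the control libraries (log2 fold change -0.38, SE 0.0680, adjusted p = 0.000201). Neither overlapped between groups. RRM2 has 3 named pseudogenes, and another gene on its strand covers 20.2% of its exon bases. TYMS, which makes thymidylate, fell by 0.43 on the log2 scale (adjusted p = 0.000810). Exons of genes on the opposite strand, ENOSF1 and TYMSOS, cover 46.6% of TYMS, so its level is uncertain. With library totals alone TK1 and RRM2 passed as lower and RRM1 and TYMS did not.

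Other genes of nucleotide supply moved in both directions: of 18 tested, 10 fell and 3 rose. Over all genes tested 32.2% fell and 32.4% rose. SAMHD1, which breaks down dNTPs, had 106, 101 and 103 CPM in the ARD1 libraries, against 48.2, 44.3 and 44.2 CPM in the control libraries (log2 fold change 1.18, SE 0.0732, adjusted p = 3.26e-09). RRM2B, the small ribonucleotide reductase subunit known as a p53 target that serves outside S phase, had 106, 104 and 112 CPM in the ARD1 libraries, against 46.1, 59.1 and 60.8 CPM in the control libraries (log2 fold change 0.96, SE 0.0956, adjusted p = 5.86e-07). For both, every ARD1 library was above every control library. Per kilobase of principal transcript, RRM2B stood at 21.8 ± 0.895 CPM per kilobase in ARD1 cells and 11.2 ± 1.63 in control cells, and RRM2 at 7.11 ± 0.396 CPM per kilobase in ARD1 cells and 12.3 ± 0.418 in control cells. RRM2B was thus the higher transcript per kilobase in ARD1 cells, while in control cells the difference between them was within the spread of the libraries. These levels carry no offset for GC content. Over all settings the log2 fold change of RRM2B ran from 0.61 to 1.22. NME1, a nucleoside diphosphate kinase, had 15.99, 17.5 and 15.99 CPM in the ARD1 libraries, against 37.2, 29.7 and 33.05 CPM in the control libraries (log2 fold change -1.01, SE 0.102, adjusted p = 6.18e-07). It shares 18.6% of its exon bases with the NME1-NME2 readthrough gene. DUT (-0.70), the dUTPase, also fell, and DCK (0.73), the deoxycytidine kinase, rose; both were picked out after their values were seen.

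**Figure D4:**
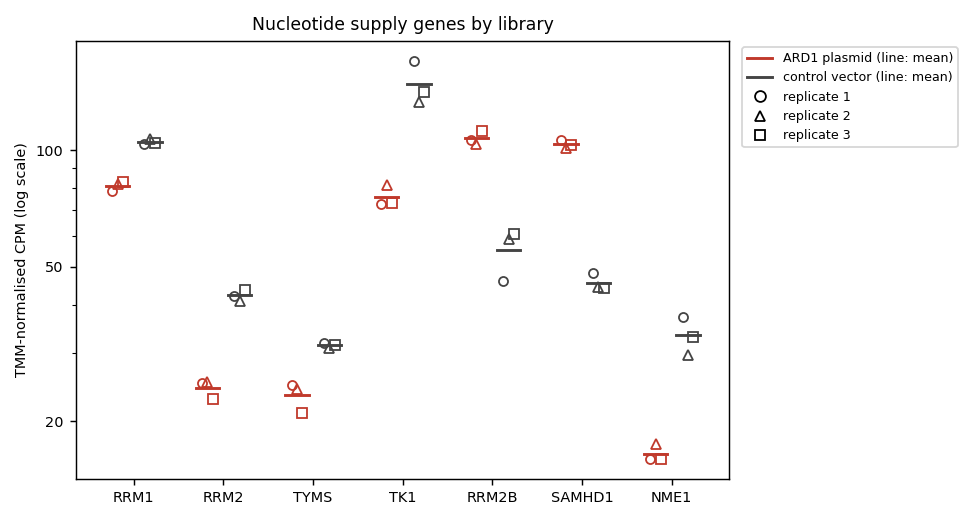
TMM-normalised CPM (y axis, log scale) of nucleotide supply genes (x axis) in each library, with the ARD1 libraries left of the control libraries and a line at each group's mean. RRM1, RRM2, TYMS, TK1 and NME1 are lower in all ARD1 libraries, and RRM2B and SAMHD1 are higher in all of them.

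The pair that copies DNA methylation after the fork fell by unequal amounts. UHRF1, which recognises hemimethylated DNA, had 30.5, 28.5 and 29.3 CPM in the ARD1 libraries, against 67.5, 67.9 and 63.7 CPM in the control libraries (log2 fold change -1.17, SE 0.0771, adjusted p = 6.36e-09). DNMT1, the maintenance methyltransferase, had 142, 147 and 146 CPM in the ARD1 libraries, against 208, 175 and 164 CPM in the control libraries (log2 fold change -0.33, SE 0.0840, adjusted p = 0.00316). Both were lower in all ARD1 libraries, and control replicate 1 was the highest library for DNMT1. With library totals alone UHRF1 passed and DNMT1 did not.

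Other genes of the replication machinery and of G1/S control went both ways. Of 78 other replication and G1/S genes, 76 were tested; 27 fell (35.5%) and 22 rose (28.9%), close to the 32.2% and 32.4% of all genes tested, with a median of 0.01. Of 12 licensing and origin firing genes 3 fell and 3 rose. RECQL4, a helicase of this group, fell (-0.81), while DBF4B, an activator of the CDC7 kinase (0.70), and DONSON, a replisome factor (0.49), rose. Of 17 other fork components 2 fell and 7 rose. TIPIN (1.11) and TIMELESS (-0.55), partners in 1 fork protection complex, went opposite ways. Exons of RPL9P25 on the same strand cover 21.0% of TIPIN's exon bases, so its value is uncertain. DSCC1, part of an alternative clamp loader, rose (0.78). POLD4, the smallest polymerase delta subunit, fell by 0.24, but stood at 0.03 with library totals alone and at 0.07 with GC and length offsets. Its call was also lost with upper-quartile scaling, without control replicate 2 and without ARD1 replicate 1 or 3. Another gene on its strand covers 21.3% of POLD4's exon bases.

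Of 8 genes for chromatin assembly behind the fork 4 fell and 2 rose. The histone chaperones ASF1A (0.63) and NASP (0.36) rose and HELLS, a chromatin remodeller, fell (-0.56). Of 21 other G1/S regulators 8 fell and 7 rose. LIN54, the DNA-binding subunit of the DREAM and MuvB complexes, had 43.6, 42.1 and 45.8 CPM in the ARD1 libraries, against 15.6, 19.2 and 16.8 CPM in the control libraries (log2 fold change 1.35, SE 0.0957, adjusted p = 1.44e-08). Its libraries were far apart between groups. RBL1, the RB-family protein p107, rose (0.79), and TFDP1, the dimer partner of E2F proteins, fell (-0.56). Chosen after their values were seen, E2F8 (-0.80) fell and E2F7 (0.39) rose, both being repressive E2F proteins. CCNA2, the S-phase cyclin, had a log2 fold change of -0.000414 (adjusted p = 0.997), and CDK2 fell by 0.42. They too were picked out after their values were seen. Over all settings CCNA2 ran from -0.16 to 0.26, with a lowest adjusted p of 0.0249. CDK2 ran from -0.46 to -0.15, with a highest adjusted p of 0.0547.

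Within the 50 genes the fall was larger where GC content was higher. Across genes, which are not independent replicates, log2 fold change and transcript GC content had a Spearman rho of -0.58 and a Pearson r of -0.58 over the 50. Over 15238 tested genes the values were -0.27 and -0.20. Transcript GC ranged from 36.9% to 65.0% in the 50 genes, with a median of 48.0%. With GC and length offsets the rho over the 50 genes was -0.29. The offsets moved the median of the polymerase delta and epsilon step to -0.62, where it was -1.08 with TMM alone, and that of MCM2-7 to -1.06, where it was -1.13. The part of GC content in the falls was not tested beyond these offsets.

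**Figure D5:**
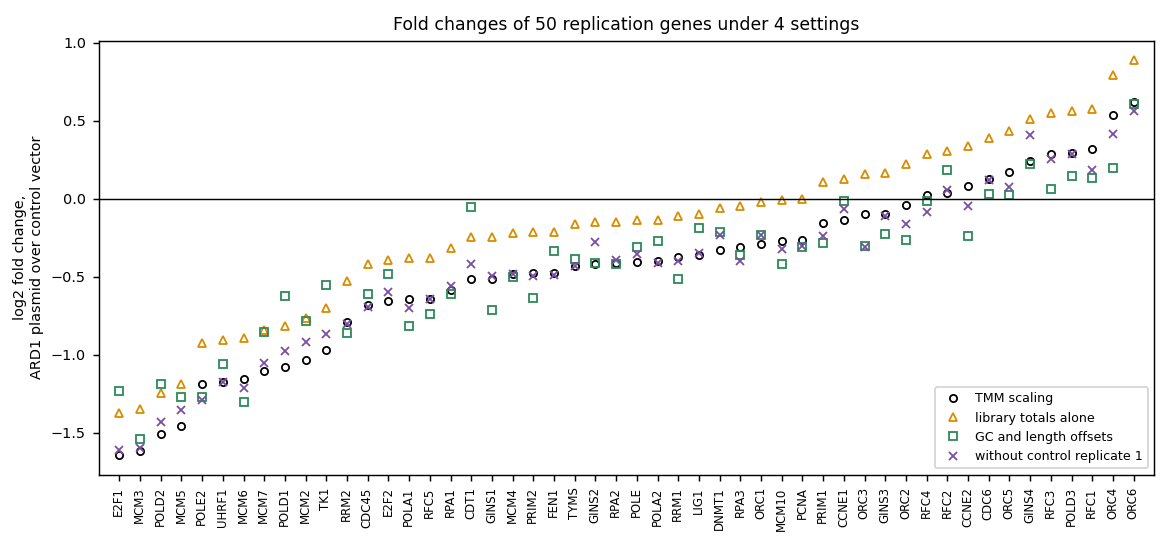
Log2 fold change (y axis, ARD1 plasmid over control vector) of the 50 genes (x axis, ordered by the TMM value) with TMM scaling, library totals alone, GC and length offsets, and without control replicate 1. Library totals shift every gene upward, so that PCNA, PRIM1, CCNE1, ORC3, GINS3 and ORC2 change sign with them, while E2F1, POLD2 and the MCM2-7 genes stay below 0 in all 4 settings.

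Of the 34 members that fell, 20 passed as lower in every alternative run with no minimum fold: MCM2 to MCM7, CDC45, GINS1, POLA1, POLD1, POLD2, POLE2, RFC5, RPA1, FEN1, RRM2, TK1, UHRF1, E2F1 and E2F2. Of the 5 that rose, ORC4 and ORC6 did so. How many of all called genes keep their call in every alternative was not counted. These counts thus have no share over all genes beside them. Control replicate 1 stood apart most within its group, being the highest control library for 24 members and the lowest for 17. Without it 36 members fell, where 34.1% of all genes tested fell, and 6 rose, where 5414 of 16327 rose. The median coefficient of variation over the 50 genes was 4.61% between ARD1 libraries and 6.95% between control libraries.

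Markers of other cell types were summed in the same way. Of 7 fibroblast and stellate markers 3 averaged at least 1 CPM in a group, with a summed level of 18.2 to 20.7 CPM in ARD1 libraries and 78.1 to 98.8 CPM in control libraries. Of 6 immune markers 2 did, with 5.52 to 6.26 CPM in ARD1 libraries and 14.5 to 15.6 CPM in control libraries. Of the endothelial markers, 4 of 5 did, with 90.2 to 103 CPM in ARD1 libraries and 70.0 to 82.7 CPM in control libraries. Members within these lists moved in different directions. COL3A1 had 1.03 ± 0.532 CPM with the ARD1 plasmid and 28.2 ± 1.203 CPM with the control vector, and LUM had 14.8 ± 0.877 CPM with the ARD1 plasmid and 59.8 ± 11.3 CPM with the control vector, whereas COL1A1 had 1.67 ± 0.658 CPM with the ARD1 plasmid and 0.565 ± 0.458 CPM with the control vector and rose. Both immune markers above 1 CPM fell, PTPRC with 0.0529 ± 0.0460 CPM with the ARD1 plasmid and 1.74 ± 0.622 CPM with the control vector and ITGAM with 5.41 ± 0.377 CPM with the ARD1 plasmid and 12.4 ± 1.12 CPM with the control vector. Of the endothelial markers CDH5 fell, with 0.0677 ± 0.0836 CPM with the ARD1 plasmid and 33.1 ± 2.44 CPM with the control vector, while PECAM1, with 57.7 ± 3.22 CPM with the ARD1 plasmid and 32.7 ± 4.13 CPM with the control vector, and KDR, with 35.3 ± 4.54 CPM with the ARD1 plasmid and 8.53 ± 0.781 CPM with the control vector, rose. The part of these differences, and of that in the hepatocyte markers, in the results was not tested.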

How the data were processed

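The values the authors deposited are unnormalized counts of reads per Ensembl gene in 6 libraries of PLC/PRF/5 cells, 3 per group. RNA was depleted of rRNA and made into directional libraries, per the labels' protocols. Reads were processed with cutadapt 4.6 and STAR 2.7.11b on GRCh38, per the submitters' processing notes. How reads were assigned to genes (program, strand, annotation) is not given in the sources used here.

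From these counts, genes were kept by filterByExpr (15816 kept, 9255 removed), scaled by TMM and compared in edgeR 4.0.16 (under R 4.3.3) by its quasi-likelihood test, with group as the only term and all 6 libraries in the fit. Benjamini-Hochberg adjustment ran over all genes tested, with adjusted p under 0.05 as the threshold, and SE was derived from the F statistic. The procedure was run on simulated counts with 200 changed genes. In the data 64.6% of genes tested changed, and the simulation does not cover so wide a shift. Counts are not molecules, so floors cover counting error only. Members were matched by symbol to Ensembl identifiers. Exon overlaps, lengths and GC content came from GENCODE 29, and per-kilobase values used the principal transcript. Promoters came from RefSeq, using the first listed start of a gene.

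The members, the other gene list and the tests were chosen with earlier results of these data known. Values in every library are given for the members with the largest and the smallest change in each step, for every member that rose, and for the E2F1-E2F2 and CCNE1-CCNE2 pairs, with ORC1 and GINS2 added for their dependence on single libraries. Of the other genes, the 3 with the smallest p in each group, and up to 2 against the direction of their group, are named. Alternatives were RLE, upper-quartile and library-total scaling, DESeq2 1.42.0, limma-voom (limma 3.58.1), 2 other filters, GC and length offsets, a replicate block, a minimum log2 fold of 1 and each library left out.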

Additional observations from a re-analysis of the deposited data

How the results depend on the processing

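Of 750 values of single members under 15 alternatives, 687 kept direction and call, 34 lost the call, 14 gained one and 15 changed sign. Leaving out 1 library gave 35 to 42 members changed, 31 to 36 lower and 4 to 6 higher, with a median of -0.46 to -0.38. In those fits 57.2% to 67.3% of all genes tested changed, and 28.9% to 34.1% were lower. For the other replication and G1/S genes, leaving out 1 library gave 43 to 52 changed, 24 to 29 lower and 19 to 24 higher. Library totals alone gave 21 members lower, 10 higher and a median of -0.14, and 13 of the other genes lower and 41 higher. This scaling shifts all genes together, with 22.0% of all genes tested lower and 7606 of 15816 higher. Upper-quartile scaling gave a median of -0.37. GC and length offsets gave 3 members higher, where 5265 of 15816 genes tested were higher. A minimum 2-fold change, which by construction keeps fewer genes, left 10 members changed, 10 lower and 0 higher, and 4 of the other genes changed, 1 lower and 3 higher; 8 to 11 members fell 2-fold with 1 library left out. The count of 0 members higher holds for that minimum only, and 5 passed without it. Signs changed with library totals for ORC2 (0.22), ORC3 (0.16), GINS3 (0.17), PRIM1 (0.10), PCNA (0.00, rounded from 0.000356) and CCNE1 (0.13); with upper-quartile scaling for ORC2 (0.00, rounded from 0.00157); and with offsets for RFC4 (-0.013) and CCNE2 (-0.24). With 1 library left out the values ran from -0.16 to 0.014 for ORC2, -0.31 to 0.049 for ORC3, -0.045 to 0.094 for RFC2, -0.088 to 0.073 for RFC4 and -0.046 to 0.11 for CCNE2. None of these genes but PCNA had passed the test with TMM, and causes beyond the scaling itself were not tested. With the replicate number as a block, 39 members changed, 34 lower and 5 higher, where 65.1% of all genes tested changed. The median of the members was then -0.41, and 52 of the other genes changed. Same-numbered libraries correlated in their deviations at 0.0168, -0.0356 and 0.0342, so the numbers do not pair the libraries. Depth limits POLE2, POLA2, E2F2 and CCNE2 most, which had the lowest CPM of the list in ARD1 libraries.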

Other observations

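A pair of genes from the wider replication list was too low to test. RNASEH2A, the catalytic subunit of the ribonuclease that removes ribonucleotides from DNA, ranged from 0.0375 to 0.161 CPM over the 6 libraries, and CHTF8, a small subunit of an alternative clamp loader, from 0.143 to 0.564 CPM. Exons of THSD8 on the same strand cover 30.8% of RNASEH2A's exon bases, so its level is uncertain. Per kilobase of principal transcript, PCNA, at 103 ± 1.17 CPM per kilobase in ARD1 cells and 123 ± 3.76 in control cells, and MCM7, at 74.3 ± 1.16 CPM per kilobase in ARD1 cells and 160.0 ± 13.02 in control cells, were the highest of the 50 genes in both groups. With the ARD1 plasmid PCNA was above MCM7 and with the control vector MCM7 was above PCNA.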
